A study of Mus musculus with 27 samples.

Results

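Histone and DNA modifying enzymes add or remove small chemical groups on histone tails and on cytosine, and thereby set how compact and how readily transcribed a stretch of chromatin is. The genes described here were every symbol in the deposited gene tables of NMuMG cells, a mouse mammary epithelial line, that named a lysine demethylase (Kdm1 to Kdm8), a lysine methyltransferase (Kmt, Setd, Ezh1 or Ezh2), a histone deacetylase (Hdac), a sirtuin (Sirt1 to Sirt7), a DNA methyltransferase (Dnmt) or a Tet dioxygenase. This rule used symbols alone and found 59 of 24892 symbols. Of these, 53 occurred in the table of parental cells and all 59 in the table of shRNA cells. Kdm7a and Kmt2a to Kmt2e were only in the second, because the parental table lists them under older symbols that the rule does not take. After the requirement of at least 1 FPKM in at least 2 libraries, 47 of 11309 tested genes were members in parental cells and 53 of 11450 in shRNA cells. Dnmt3b, Dnmt3l, Hdac9, Kdm4d, Kdm5d and Tet1 stayed below that level in both tables.

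The study asked how lamin B1, a protein of the nuclear lamina, takes part in the epithelial to mesenchymal transition (EMT) that the growth factor TGF-β starts in these cells. Parental NMuMG cells, cells with a control (irrelevant) shRNA and cells with an shRNA against lamin B1 (KD) were each left untreated or given TGF-β (1 to 5 ng/ml) for 8 or 24 h, with 2 RNA-seq libraries per group and therefore 6 parental and 12 shRNA libraries. The shRNAs were delivered by lentivirus and both shRNA lines went through puromycin selection, so the control cells share the virus and the drug with the KD cells and parental cells have neither. Parental cells were also profiled by lamin B1 ChIP-seq on a euchromatin fraction, in which 2 parallel ChIPs were mixed into 1 library, and by ATAC-seq, an assay of accessible chromatin, each with 1 library per time and no replicate. The labels do not say whether the shRNA lines are clones, and the Hi-C maps were not analysed here. Since the RNA is from whole cultures, fewer cells with a transcript and less of it per cell cannot be told apart.

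Expression is given as FPKM, fragments per length of transcript and per size of library, a scale on which genes can be compared per length. Differences are log2 differences of FPKM + 1, which understate the change of low genes, each with its standard error and the adjusted p of limma (Benjamini-Hochberg over all tested genes); a gene is said to rise or fall where the adjusted p was below 0.05. With 2 libraries per group these p-values measure the spread between these libraries only. Small nucleolar RNA genes took a large and uneven part of the tables: the 10 highest genes held 25.0 to 34.1% of the FPKM sum in parental libraries and 11.4 to 40.4% in shRNA libraries. From the step of low values, sequencing depth lay between 92.8 and 116% of the first library in the parental table and between 79.0 and 112% in the shRNA table. Of 7 epithelial markers 4 (Cdh1, Krt8, Krt18 and Krt19) averaged over 1 FPKM in untreated cells, while Epcam, Cldn3 and Cldn4 were below 1 FPKM there. Krt19 averaged 993 FPKM in untreated parental and 1076 FPKM in untreated shRNA cells, and its lowest library in those tables had 55.5 and 18 FPKM. Leukocyte and adipocyte markers were at or near 0 and the summed endothelial markers did not exceed 1.51 FPKM. In the shRNA table the median of all tested genes was shifted by TGF-β, by -0.14 (8 h) and -0.13 (24 h) in control cells and by -0.13 and -0.10 in KD cells, so counts of rising and falling members are given there also after quantile normalization, which removes most of this shift.

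Lmnb1, the target of the shRNA, served as the check of the labels. Lmnb1 had 29.2 and 36.5 FPKM untreated, 32.8 and 32.1 at 8 h and 18.4 and 17.9 at 24 h in control cells, against 9.01 and 9.27 FPKM untreated, 7.79 and 8.14 at 8 h and 4.37 and 7.52 at 24 h in KD cells. The groups did not overlap at any time, and KD minus control differences were -1.73 ± 0.18 (adjusted p = 5.7e-04) untreated, -1.90 ± 0.18 (adjusted p = 1.9e-04) at 8 h and -1.50 ± 0.18 (adjusted p = 9.0e-04) at 24 h. Lmnb1 itself was lower at 24 h in all 3 kinds of cells, with 36.9 and 36.3 FPKM untreated, 34.1 and 34.4 at 8 h and 19.5 and 17.6 at 24 h in parental cells.

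The families have opposing members. DNA methylation is copied at replication by Dnmt1, set anew by Dnmt3a and Dnmt3b, and oxidised by the Tet enzymes as a first step of its removal. Ezh1 or Ezh2 is the catalytic subunit of Polycomb repressive complex 2, which methylates histone H3 lysine 27, and Kdm6a and Kdm6b take that methyl mark off. Methylation of H3 lysine 4, a mark of active promoters and enhancers, is written by Kmt2 and Setd1 complexes and by Setd7 and erased by Kdm1 and Kdm5 enzymes, while Hdac enzymes and sirtuins remove acetyl groups, the latter with NAD as a cofactor. In EMT such enzymes are known as partners of the transcription factors that silence epithelial genes.

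The data also bear on the DNA just upstream of these genes, where lamin B1 and ATAC peaks were called. The 300 bases before the annotated transcription start site (TSS) are shown for 6 members that lead the results below, read from the mm9 genome, 5′ to 3′ on the strand of the gene, with each CG dinucleotide in capitals. Setd7 and Kdm5b rose most among the members in parental cells at 24 h, Dnmt1 and Ezh2 fell in every response to TGF-β, and Kmt2d and Kdm7a carried high lamin B1 peaks. The windows lie at chr3:51364801-51365100 (Setd7, minus strand), chr1:136456448-136456747 (Kdm5b, plus strand), chr15:98701615-98701914 (Kmt2d, minus strand), chr6:39156789-39157088 (Kdm7a, minus strand), chr6:47545341-47545640 (Ezh2, minus strand) and chr9:20757318-20757617 (Dnmt1, minus strand).
Setd7: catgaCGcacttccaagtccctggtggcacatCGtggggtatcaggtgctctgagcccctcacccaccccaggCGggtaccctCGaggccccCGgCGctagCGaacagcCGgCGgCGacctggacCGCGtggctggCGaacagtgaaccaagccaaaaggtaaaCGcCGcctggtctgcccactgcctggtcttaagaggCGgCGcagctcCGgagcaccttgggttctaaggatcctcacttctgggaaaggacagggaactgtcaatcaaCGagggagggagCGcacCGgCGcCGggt
Kdm5b: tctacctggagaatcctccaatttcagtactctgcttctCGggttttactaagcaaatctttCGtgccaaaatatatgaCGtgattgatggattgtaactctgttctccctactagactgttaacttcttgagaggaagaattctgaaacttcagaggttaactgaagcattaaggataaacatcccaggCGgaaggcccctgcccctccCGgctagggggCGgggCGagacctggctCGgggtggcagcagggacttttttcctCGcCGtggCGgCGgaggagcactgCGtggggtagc
Kmt2d: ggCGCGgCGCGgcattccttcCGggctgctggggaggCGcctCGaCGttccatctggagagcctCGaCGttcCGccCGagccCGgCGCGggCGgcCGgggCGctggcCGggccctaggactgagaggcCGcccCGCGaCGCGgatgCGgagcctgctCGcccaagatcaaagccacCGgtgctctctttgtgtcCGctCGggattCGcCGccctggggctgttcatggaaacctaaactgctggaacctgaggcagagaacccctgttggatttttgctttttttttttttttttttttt
Kdm7a: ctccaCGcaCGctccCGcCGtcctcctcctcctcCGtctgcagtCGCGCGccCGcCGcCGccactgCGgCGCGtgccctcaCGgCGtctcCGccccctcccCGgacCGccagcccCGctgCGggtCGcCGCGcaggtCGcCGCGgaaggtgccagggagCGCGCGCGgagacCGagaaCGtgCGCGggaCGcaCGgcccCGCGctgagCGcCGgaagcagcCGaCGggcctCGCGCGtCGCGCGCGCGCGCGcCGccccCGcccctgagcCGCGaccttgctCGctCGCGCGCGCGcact
Ezh2: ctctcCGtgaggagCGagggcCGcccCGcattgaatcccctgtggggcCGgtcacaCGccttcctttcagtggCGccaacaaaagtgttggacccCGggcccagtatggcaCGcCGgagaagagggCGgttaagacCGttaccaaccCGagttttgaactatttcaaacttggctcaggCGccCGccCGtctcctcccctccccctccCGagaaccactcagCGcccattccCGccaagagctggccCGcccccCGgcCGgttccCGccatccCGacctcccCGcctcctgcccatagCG
Dnmt1: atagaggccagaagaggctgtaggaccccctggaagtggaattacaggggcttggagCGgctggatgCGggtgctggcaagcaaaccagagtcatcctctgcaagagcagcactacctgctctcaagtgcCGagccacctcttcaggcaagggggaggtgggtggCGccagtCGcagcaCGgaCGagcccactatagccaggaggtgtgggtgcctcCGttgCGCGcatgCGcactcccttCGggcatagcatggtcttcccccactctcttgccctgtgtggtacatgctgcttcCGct

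These windows held 23 (Setd7), 13 (Kdm5b), 31 (Kmt2d), 63 (Kdm7a), 26 (Ezh2) and 13 (Dnmt1) CG dinucleotides. Over all 59 members the median was 18, against 17 over 11613 tested genes with such a window and 10 over all 22639 placed genes. The median share of G and C was 59.0% in members and 57.7% in tested genes, so members resembled other expressed genes. A GC box, an E-box, a Smad box and E2F sites were searched on both strands, and none of these contains another. The GC box GGGCGG was in 37 members (62.7%, against 58.0% of tested genes), the CACCTG box bound by Snail and Zeb factors in 13 (22% against 18.2%), the Smad box CAGAC in 22 (37.3% against 46.2%), and an E2F site (TTTCCCGC, TTTGGCGC, TTTCGCGC or TTTGCCGC) in 1 (1.69% against 3.62%). RefSeq promoter entries matched 47 of the 59 members, among them all 6 shown. The unmatched members were Hdac1, Hdac10, Hdac3, Kdm2a, Kdm3b, Kdm4b, Kdm5a, Kdm6b, Kmt2b, Kmt2e, Setd1b and Setd8.

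Most of the enzymes were expressed before TGF-β was added. In untreated parental cells 24 of 53 members were at or above 10 FPKM and 6 were under 1; in untreated control cells 28 of 59 were at or above 10, 6 under 1, and Dnmt3l and Kdm5d were listed at 0. The class I deacetylase Hdac2, a subunit of several corepressor complexes, was the highest member with 83.4 and 82.4 FPKM in the 2 untreated parental libraries. Setd8, the H4 lysine 20 monomethyltransferase, had 60.7 and 61.5 and Hdac1 60.2 and 61, and these overlapped. Dnmt1 (46.9 and 50.5), Hdac3 (45.9 and 44.2) and Ezh2 (44.1 and 41.2) followed without overlap. At the other end the de novo methyltransferase Dnmt3b lay between 0.238 and 0.529 FPKM over all 18 libraries, Tet1 between 0.0021 and 0.0485 and the class IIa deacetylase Hdac9 between 0.00203 and 0.42, so Dnmt3a, Tet2 and Tet3 were the measurable de novo methyltransferase and Tet genes. Because the 2 tables were processed separately, levels in parental and shRNA cells are set side by side without a test.

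**Figure D1:**
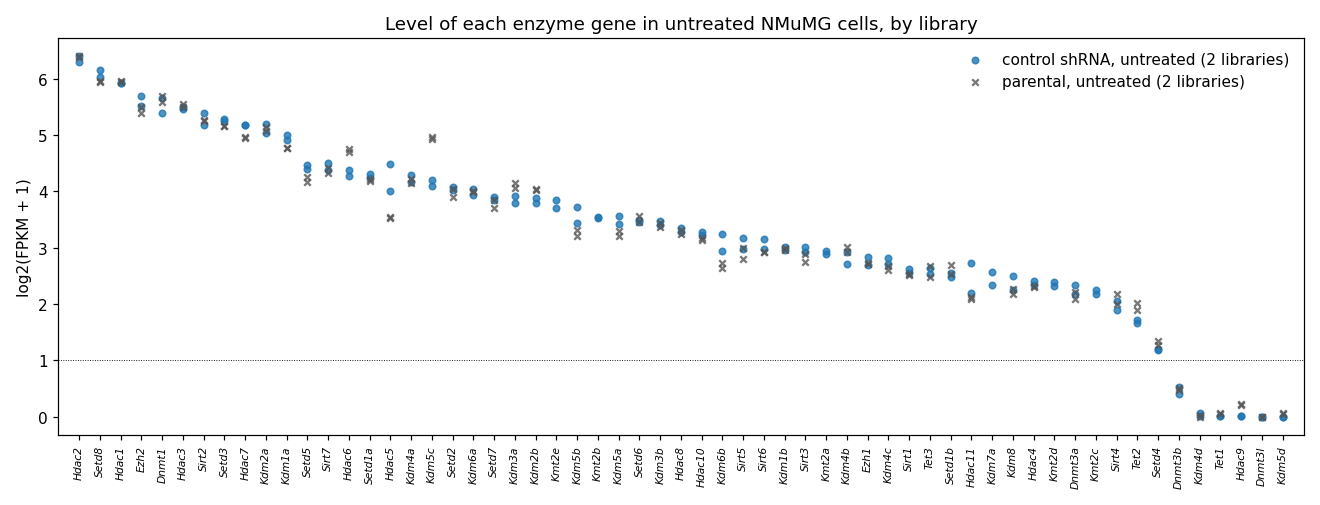
Level of each enzyme gene in untreated cells, as log2 of FPKM + 1 on the vertical axis, with 1 point per library (circles, control shRNA; crosses, parental) and genes ordered by the control mean. The dotted line marks 1 FPKM; Hdac2 is at the left with 82.9 FPKM as the parental mean, and 6 genes at the right lie below the line in every library shown.

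TGF-β changed many of the enzymes, by amounts mostly below 2-fold. In parental cells 13 members rose and 11 fell at 8 h (51.1% of the 47 tested). Of all tested genes 54.5% passed, 22.4% higher and 32.1% lower. At 24 h 16 rose and 11 fell (57.4%, against 70.5% of all genes, 33.4% higher and 37.1% lower). In control shRNA cells 11 rose and 20 fell at 8 h (58.5%, against 64.3%, 19.4% higher and 44.9% lower). At 24 h 9 rose and 21 fell there (56.6%, against 70.7%, 25.5% higher and 45.1% lower). In KD cells 13 rose and 17 fell at 8 h (56.6%, against 67.8%, 23% higher and 44.8% lower). Their 24 h response had 13 rising and 18 falling (58.5%, against 71.9%, 28.6% higher and 43.3% lower). Members thus passed no more often than other genes, and at 24 h their median absolute log2 difference was smaller, 0.19 against 0.29 over all genes in parental, 0.23 against 0.35 in control and 0.21 against 0.36 in KD cells. After quantile normalization the splits of higher and lower at 8 and 24 h were 16 and 10, and 18 and 12, in parental cells. They were 21 and 13, and 18 and 14, in control cells and 19 and 13, and 18 and 15, in KD cells. Of all genes 3012 and 3043, and 4079 and 3895, of 11309 then passed in parental cells. In control cells 3082 and 3624, and 3900 and 3901, of 11450 did, and in KD cells 3432 and 4036, and 4126 and 4103. The balance of rising and falling members in the shRNA table thus depended on the scaling.

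Among the 47 members tested in all 6 responses, 12 moved the same way in each. In single responses 54.5 to 71.9% of all tested genes passed, and the share of all genes passing the same way in all 6 was not computed. The 8 and 24 h responses of each kind of cell also share their untreated libraries. The DNA methyltransferase Dnmt3a, the demethylases Kdm1a, Kdm5b and Kdm6b and the methyltransferase Setd7 were higher each time, and Dnmt1, Ezh2, Hdac10, Hdac7, Setd3, Setd6 and Setd8 were lower each time. Over 408 refits of these calls with all libraries present but another constant, filter, scaling, block or sample set, 407 kept direction and threshold, the exception being Setd3 in KD cells at 8 h after rescaling without small RNA genes. The calls of Setd7 in control cells at 8 h, Dnmt3a in control cells at 24 h and Hdac7 in parental cells at 8 h depended on single libraries, as given below. The responses of control and KD cells were measured against different untreated libraries. Hdac11, Hdac6, Hdac8 and Sirt2 passed the test in both directions in different responses, and Ezh1, Hdac3, Kdm2a, Kdm4b, Setd2 and Tet3 passed in none.

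**Figure D2:**
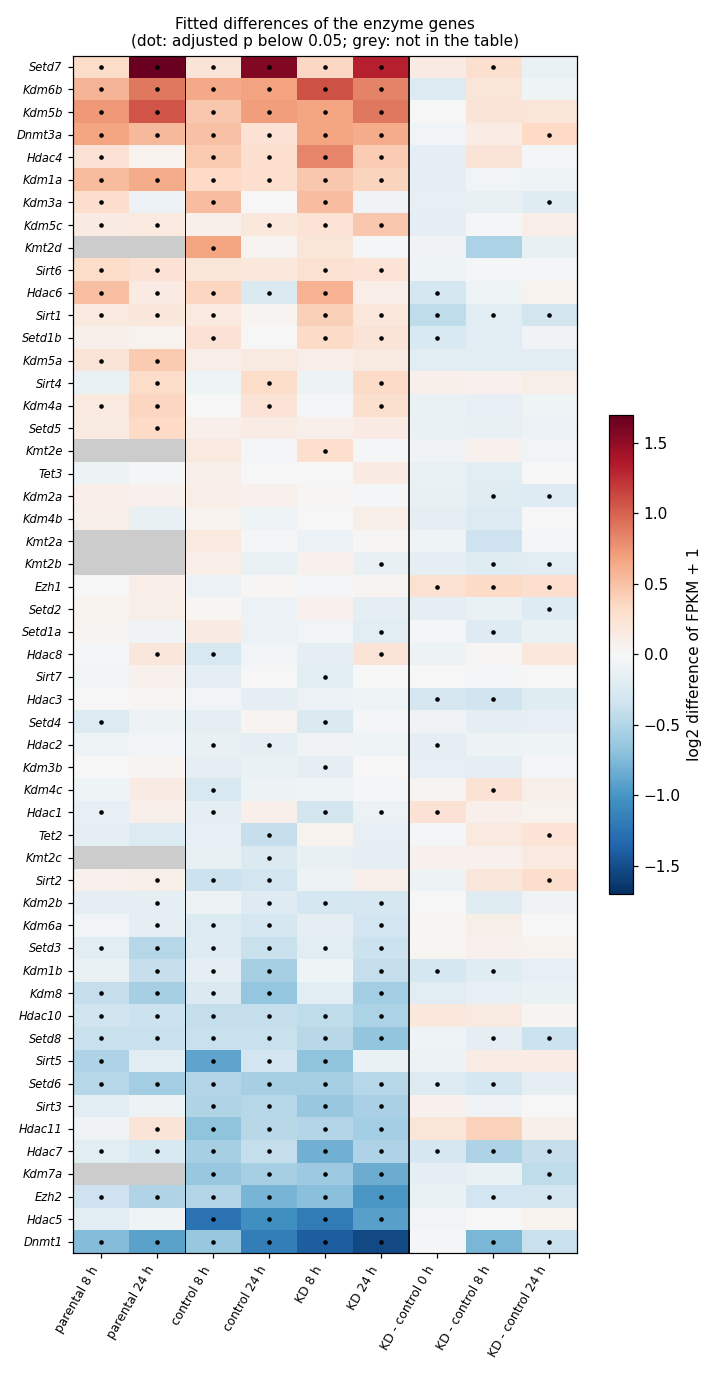
Fitted log2 difference of FPKM + 1 for the 53 tested members (rows, ordered by the mean of the 4 shRNA responses) in 9 comparisons (columns): the TGF-β responses of each kind of cell, and KD against control cells at each time. Red is higher, blue lower, a dot marks an adjusted p below 0.05 and grey a symbol not in the parental table; Setd7 heads the rows and Dnmt1 closes them, at -0.90 in parental and -1.53 in KD cells at 24 h.

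Among the lysine methyltransferases, Setd7 gave the largest rise of all members at 24 h. Setd7 had 12.1 and 13.4 FPKM untreated, 16.1 and 16.1 at 8 h and 43.2 and 42.5 at 24 h in parental cells. The 24 h libraries stood far above the rest, at 1.67 ± 0.055 (adjusted p = 9.7e-07), while the rise at 8 h was 0.32 ± 0.055 (adjusted p = 0.0028). Control cells had 14 and 13.4 FPKM untreated, 16.2 and 16 at 8 h and 42.1 and 43.6 at 24 h, and KD cells 15.4 and 14.9 FPKM untreated, 20.1 and 19.1 at 8 h and 43 and 36 at 24 h. Setd7 methylates H3 lysine 4 once and also several other proteins. The 24 h rise was 1.58 ± 0.073 (adjusted p = 1.7e-07) in control and 1.32 ± 0.073 (adjusted p = 4.2e-07) in KD cells, and the 8 h rise in control cells (0.22 ± 0.073, adjusted p = 0.027) lost the threshold without untreated control replicate 2 or either 8 h control library (adjusted p up to 0.11).

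The Polycomb methyltransferase Ezh2 fell at both times in every kind of cell. Ezh2 had 44.1 and 41.2 FPKM untreated, 33.2 and 33 at 8 h and 29.5 and 29.6 at 24 h in parental cells. Control cells had 44.9 and 50.5 FPKM untreated, 33.3 and 33.5 at 8 h and 27.1 and 27.3 at 24 h. KD cells had 44.5 and 43.9 FPKM untreated, 26.1 and 27 at 8 h and 21.5 and 22.1 at 24 h. No treated library reached an untreated one, and the 24 h differences were -0.51 ± 0.045 (adjusted p = 4.9e-05), -0.78 ± 0.053 (adjusted p = 1.6e-06) and -0.99 ± 0.053 (adjusted p = 3.4e-07). Its paralog Ezh1, which can take the same place in the complex, had 5.64 and 5.54 FPKM untreated, 5.52 and 5.6 at 8 h and 6.08 and 6.15 at 24 h in parental cells and passed the test in no response. The ratio of Ezh2 to Ezh1, as a mean of 2 libraries, went from 7.63 ± 0.27 (SD) through 5.95 ± 0.094 to 4.83 ± 0.018 in parental cells, from 8.25 ± 1.3 through 6.27 ± 0.51 to 4.62 ± 0.11 in control cells and from 6.19 ± 0.36 through 3.83 ± 0.39 to 2.94 ± 0.15 in KD cells. The treated ratios lay below the untreated ones in every library.

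Setd8, whose H4 lysine 20 mark is tied to chromosome compaction and the cell cycle, also fell throughout. Setd8 had 60.7 and 61.5 FPKM untreated, 45.1 and 48.4 at 8 h and 47.3 and 46.5 at 24 h in parental cells. Control cells had 64.2 and 70.3 FPKM untreated, 50.3 and 52.7 at 8 h and 51.4 and 51.6 at 24 h. KD cells had 63.9 and 63.8 FPKM untreated, 45.8 and 45.4 at 8 h and 41.7 and 38 at 24 h. Its fall in KD cells at 24 h was -0.67 ± 0.055 (adjusted p = 5.8e-06), and the groups did not overlap. Setd6, known to methylate the NF-κB subunit RelA, went from 10.7 and 9.99 FPKM in untreated to 6.62 and 6.43 FPKM in 24 h parental cells (-0.59 ± 0.068, adjusted p = 2.0e-04), and from 10.0 and 10.2 to 6.54 and 6.52 in control cells (-0.56 ± 0.060, adjusted p = 3.4e-05). Over the 16 methyltransferases tested in shRNA cells, 3 rose and 4 fell at 8 h in control cells (19.4% and 44.9% of all genes did) and 1 rose and 5 fell at 24 h (25.5% and 45.1%). In KD cells 3 rose and 5 fell at 8 h (against 23% and 44.8%) and 2 rose and 6 fell at 24 h (against 28.6% and 43.3%). The split depended on the scaling. After quantile normalization it was 7 and 4, then 3 and 4, in control cells and 6 and 4, then 4 and 4, in KD cells. Of all 11450 tested genes 3082 rose and 3624 fell, then 3900 and 3901, in control cells under that scaling. In KD cells 3432 rose and 4036 fell, then 4126 and 4103.

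In the shRNA lines the H3 lysine 4 methyltransferases of the Kmt2 group mostly stayed below the threshold. The parental table lists them under older symbols, whose values are not given here. Kmt2d, a main enhancer methyltransferase, had 4.25 and 3.99 FPKM untreated, 7.51 and 6.83 at 8 h and 3.61 and 5.03 at 24 h in control cells. KD cells had 4.0 and 3.81 FPKM untreated, 6.15 and 3.46 at 8 h and 3.87 and 3.75 at 24 h. The 8 h control libraries were the highest, at 0.67 ± 0.20 (adjusted p = 0.015), and this call was lost without untreated control replicate 2 or 8 h control replicate 1 (adjusted p up to 0.075). The 2 KD libraries at 8 h were far apart, and only the higher approached the control libraries. Kmt2a had 6.65 and 6.43 FPKM untreated, 8.04 and 6.97 at 8 h and 5.78 and 7.09 at 24 h in control cells. KD cells had 6.32 and 5.99 FPKM untreated, 6.51 and 4.91 at 8 h and 5.66 and 6.89 at 24 h, and Kmt2a passed in no comparison. Setd2, which writes H3 lysine 36 trimethylation along transcribed genes, stayed between 11.4 and 16.4 FPKM over all libraries.

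Of 5 tested erasers of H3 lysine 4 methylation, 4 rose in parental cells at 8 h (Kdm1a, Kdm5a, Kdm5b and Kdm5c), where 22.4% of all genes did. The same 4 rose at 24 h, where 33.4% of all genes did, and Kdm1b fell then. In control cells 2 rose at 8 h and 3 at 24 h, against 19.4% and 25.5% of all genes. Kdm1b was lower there at both times, although its 8 h call ended under quantile normalization and under rescaling without small RNA genes. Kdm5b, a demethylase of trimethylated H3 lysine 4 known from breast epithelium, led the group. Kdm5b had 8.27 and 8.99 FPKM untreated, 15.8 and 14.4 at 8 h and 18.9 and 19.6 at 24 h in parental cells. Control cells had 12.2 and 9.87 FPKM untreated, 16.1 and 15 at 8 h and 18.4 and 18.7 at 24 h. KD cells had 11.1 and 11.1 FPKM untreated, 18.2 and 18.5 at 8 h and 19.5 and 23.9 at 24 h. Treated libraries were above untreated ones in each kind of cell, and the 24 h rise was 1.07 ± 0.063 (adjusted p = 7.9e-06), 0.71 ± 0.11 (adjusted p = 2.8e-04) and 0.90 ± 0.11 (adjusted p = 5.6e-05). Kdm1a (LSD1), the demethylase of the CoREST complex that Snail factors recruit, had 26.2 and 26.2 FPKM untreated, 41.7 and 35.3 at 8 h and 41.6 and 41 at 24 h in parental cells. Control cells had 30.9 and 29 FPKM untreated, 38.4 and 38.1 at 8 h and 36.4 and 37 at 24 h. Its 24 h rise was 0.64 ± 0.072 (adjusted p = 1.9e-04) and 0.28 ± 0.069 (adjusted p = 0.0051). Kdm1b (LSD2), which works in gene bodies, moved the other way, with 6.76 and 6.99 FPKM untreated, 6.21 and 6.3 at 8 h and 5.4 and 4.65 at 24 h in parental cells. Control cells had 7.04 and 6.8 FPKM untreated, 6.0 and 6.05 at 8 h and 4.35 and 4.34 at 24 h, and its fall at 24 h was -0.39 ± 0.071 (adjusted p = 0.0021) and -0.57 ± 0.058 (adjusted p = 2.4e-05).

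The H3 lysine 27 demethylases split. Kdm6b (JMJD3), an inducible enzyme, went up with 5.21 and 5.63 FPKM untreated, 8.99 and 8.17 at 8 h and 11.2 and 10.7 at 24 h in parental cells. Control cells had 8.48 and 6.63 FPKM untreated, 12.9 and 11.7 at 8 h and 12.7 and 12.6 at 24 h. KD cells had 6.19 and 6.27 FPKM untreated, 14.6 and 14.1 at 8 h and 11.6 and 12.3 at 24 h. Its largest rise was in KD cells at 8 h, 1.09 ± 0.093 (adjusted p = 1.0e-05), against 0.64 ± 0.093 (adjusted p = 3.2e-04) in control cells, and the difference between these 2 responses was 0.44 ± 0.13 (adjusted p = 0.10), which did not pass. Kdm6a (UTX), its constitutive paralog, had 15 and 14.8 FPKM untreated, 14.2 and 14.7 at 8 h and 13.2 and 13.1 at 24 h in parental cells. Control cells had 15.4 and 14.2 FPKM untreated, 12.9 and 12.1 at 8 h and 12 and 11.9 at 24 h. The fall of Kdm6a at 24 h, -0.17 ± 0.044 (adjusted p = 0.011) in parental and -0.29 ± 0.066 (adjusted p = 0.0037) in control cells, did not pass after rescaling without small RNA genes, and the parental call was lost without either 24 h library (adjusted p up to 0.064). The ratio of Kdm6a to Kdm6b went from 2.76 ± 0.18 (SD, n = 2) through 1.69 ± 0.15 to 1.20 ± 0.033 in parental cells, from 1.98 ± 0.23 to 0.945 ± 0.0036 at 24 h in control cells and from 2.42 ± 0.015 to 0.996 ± 0.14 in KD cells. Kdm7a, which acts on H3 lysines 9 and 27, fell in both shRNA lines, from 4.93 and 4.04 to 2.51 and 2.47 and 2.66 and 2.72 FPKM in control cells (-0.65 ± 0.086, adjusted p = 1.9e-04 at 8 h and -0.57 ± 0.086 (adjusted p = 3.2e-04) at 24 h). KD cells went from 3.98 and 3.86 to 2.19 and 2.23 and 1.92 and 1.56 FPKM. Its older symbol in the parental table, Jhdm1d, fell as well, by 0.42 ± 0.079 (log2, adjusted p = 0.0041) at 8 h and by 0.58 ± 0.079 (adjusted p = 4.7e-04) at 24 h.

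Among demethylases of H3 lysine 9, Kdm3a rose at 8 h in each kind of cell and Kdm4a rose in parental cells at both times and in both shRNA lines at 24 h. Kdm3a had 15.7 and 16.8 FPKM untreated, 20.6 and 19.8 at 8 h and 14.5 and 15.7 at 24 h in parental cells. Control cells had 14 and 12.9 FPKM untreated, 20.8 and 18.8 at 8 h and 13.7 and 13.4 at 24 h. KD cells had 12.4 and 12 FPKM untreated, 18.4 and 17.7 at 8 h and 11.4 and 11.8 at 24 h. The 8 h libraries were the highest in each kind of cell (0.30 ± 0.058, adjusted p = 0.0047 in parental and 0.52 ± 0.058 (adjusted p = 6.9e-05) in control cells), and none of its 24 h differences passed. Kdm4c, another of this group, stayed between 4.61 and 6.1 FPKM over all 18 libraries. Kdm8, described as an H3 lysine 36 demethylase, fell by 24 h from 3.82 and 3.51 to 2.25 and 2.07 FPKM in parental cells (-0.56 ± 0.069, adjusted p = 2.9e-04) and from 3.74 and 4.64 to 2.36 and 2.21 FPKM in control cells (-0.65 ± 0.087, adjusted p = 1.3e-04). Both of its 24 h groups lay wholly below the untreated ones.

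The 2 measurable DNA methyltransferases moved in opposite directions. Dnmt1 fell. Dnmt1 had 46.9 and 50.5 FPKM untreated, 27 and 30.4 at 8 h and 26.5 and 24.6 at 24 h in parental cells. Control cells had 41.1 and 49.7 FPKM untreated, 29.1 and 27.9 at 8 h and 18.8 and 20.0 at 24 h. KD cells had 44.4 and 44.9 FPKM untreated, 16.4 and 16.1 at 8 h and 12.8 and 16.9 at 24 h. Every treated library lay below every untreated one, and the 24 h fall was -0.90 ± 0.069 (adjusted p = 2.7e-05), -1.18 ± 0.12 (adjusted p = 2.2e-05) and -1.53 ± 0.12 (adjusted p = 3.6e-06). Dnmt3a rose, with 3.25 and 3.66 FPKM untreated, 6.33 and 5.81 at 8 h and 5.68 and 5.4 at 24 h in parental cells. Control cells had 4.06 and 3.51 FPKM untreated, 5.89 and 5.63 at 8 h and 4.48 and 4.88 at 24 h. KD cells had 3.74 and 3.5 FPKM untreated, 6.72 and 6.04 at 8 h and 5.91 and 6.42 at 24 h. Its rise at 8 h was 0.67 ± 0.071 (adjusted p = 3.3e-04), 0.50 ± 0.078 (adjusted p = 5.0e-04) and 0.67 ± 0.078 (adjusted p = 6.7e-05), and the smaller 24 h rise in control cells (0.25 ± 0.078, adjusted p = 0.019) lost the threshold without untreated control replicate 2 or 24 h control replicate 2 (adjusted p up to 0.12). The ratio of Dnmt1 to Dnmt3a therefore dropped at 8 h from 14.1 ± 0.44 (SD, n = 2) to 4.75 ± 0.68 in parental cells, from 12.1 ± 2.9 to 4.94 ± 0.019 in control cells and from 12.3 ± 0.67 to 2.55 ± 0.16 in KD cells, with 24 h values of 4.61 ± 0.071, 4.15 ± 0.065 and 2.40 ± 0.33. Of the Tet enzymes, Tet2 had 2.69 and 3.04 FPKM untreated, 2.32 and 2.59 at 8 h and 2.05 and 2.52 at 24 h in parental cells. Control cells had 2.28 and 2.16 FPKM untreated, 2.04 and 1.83 at 8 h and 1.41 and 1.5 at 24 h. Among the responses to TGF-β, Tet2 passed in control cells at 24 h only (-0.39 ± 0.067, adjusted p = 6.7e-04). Tet3 stayed between 4.34 and 5.55 FPKM over all libraries.

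**Figure D3:**
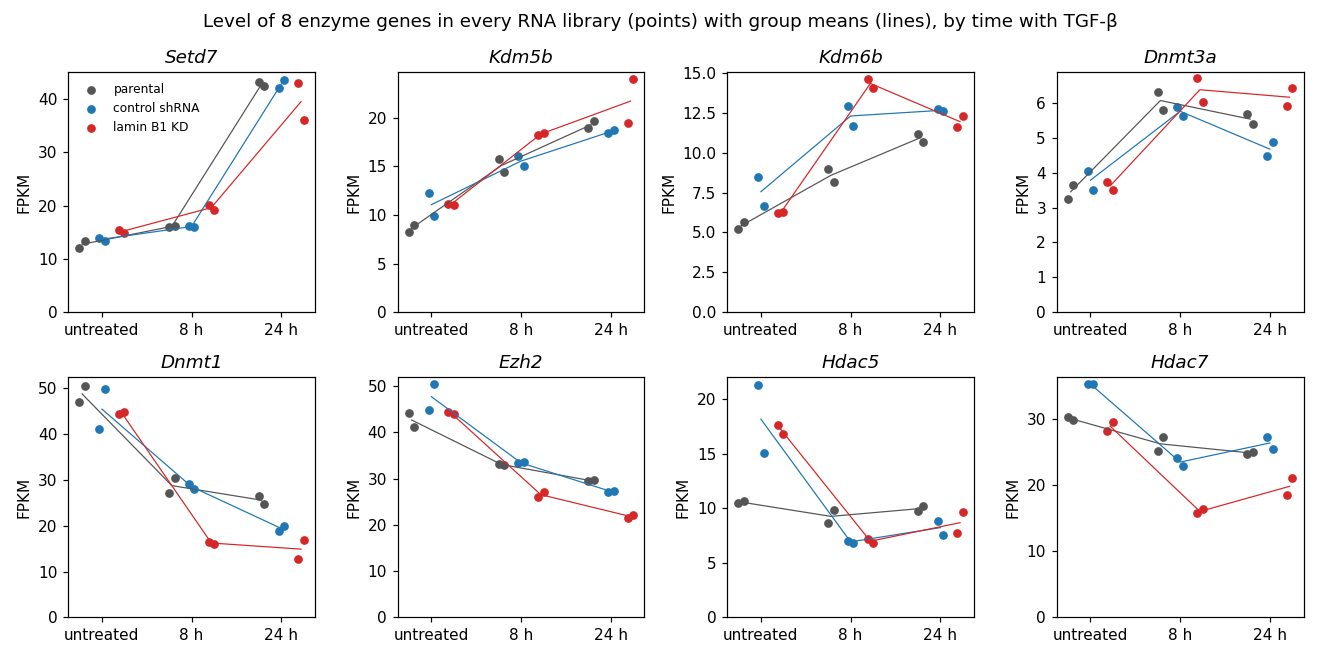
FPKM of 8 enzyme genes in every RNA library (points) against time with TGF-β, with lines through the group means of 2 libraries, for parental (grey), control shRNA (blue) and lamin B1 KD cells (red); each vertical axis starts at 0. Setd7 climbs between 8 and 24 h, Kdm5b, Kdm6b and Dnmt3a are above their untreated levels at 8 h, Dnmt1 and Ezh2 go down in all 3 kinds of cells, and Hdac5 goes down steeply in both shRNA lines.

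The class IIa deacetylases are corepressors of Mef2 factors that shuttle between nucleus and cytoplasm, and one of them, Hdac5, had the largest change of any deacetylase in the shRNA lines at 8 h. Hdac5 had 21.3 and 15 FPKM untreated, 7.02 and 6.81 at 8 h and 8.86 and 7.59 at 24 h in control cells. KD cells had 17.6 and 16.8 FPKM untreated, 7.17 and 6.78 at 8 h and 7.73 and 9.62 at 24 h. Parental cells had 10.5 and 10.6 FPKM untreated, 8.62 and 9.88 at 8 h and 9.76 and 10.2 at 24 h. Both shRNA lines fell by over 2-fold at 8 h (-1.25 ± 0.15, adjusted p = 9.4e-05 in control and -1.19 ± 0.15 (adjusted p = 1.0e-04) in KD cells), whereas the parental differences, -0.18 ± 0.068 (adjusted p = 0.063) at 8 h and -0.076 ± 0.068 (adjusted p = 0.35) at 24 h, did not pass. Untreated shRNA cells were also above untreated parental cells, and this difference between tables was not tested. Hdac7 fell in all 6 responses, with 30.3 and 29.9 FPKM untreated, 25.2 and 27.3 at 8 h and 24.8 and 25 at 24 h in parental cells. Control cells had 35.4 and 35.3 FPKM untreated, 24.2 and 22.9 at 8 h and 27.4 and 25.5 at 24 h. The call for Hdac7 in parental cells at 8 h (-0.19 ± 0.048, adjusted p = 0.014) was lost without either untreated library or 1 of the 8 h libraries (adjusted p up to 0.068). Hdac4 rose in the shRNA lines, with 4.3 and 4.05 FPKM untreated, 6.52 and 5.65 at 8 h and 5.2 and 5.4 at 24 h in control cells. KD cells had 3.48 and 3.78 FPKM untreated, 7.8 and 6.66 at 8 h and 5.46 and 4.97 at 24 h. Its rise in KD cells at 8 h was 0.83 ± 0.087 (adjusted p = 3.5e-05), and all 8 h libraries were above the untreated ones. The control call at 24 h (0.28 ± 0.087, adjusted p = 0.016) was lost without untreated control replicate 2 or 24 h control replicate 2 (adjusted p up to 0.079). Parental cells had 3.93 and 4.0 FPKM untreated, 4.83 and 4.98 at 8 h and 4.46 and 3.9 at 24 h. The parental rise at 8 h (0.25 ± 0.069, adjusted p = 0.019) was lost without either untreated library or 1 of the 8 h libraries (adjusted p up to 0.085) and without the filter on low values, and at 24 h the difference of 0.058 ± 0.069 (adjusted p = 0.47) did not pass.

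The class I deacetylases stayed close to their untreated levels. Hdac1 had 60.2 and 61 FPKM untreated, 55.2 and 54.5 at 8 h and 64.9 and 64.3 at 24 h in parental cells. Control cells had 59.8 and 60.1 FPKM untreated, 54.6 and 53.3 at 8 h and 62.9 and 64.5 at 24 h. KD cells had 71.3 and 71.5 FPKM untreated, 58 and 57 at 8 h and 64.4 and 68.9 at 24 h. It was lower at 8 h in each, with log2 differences of -0.14 ± 0.035 (adjusted p = 0.012) in parental, -0.15 ± 0.039 (adjusted p = 0.0090) in control and -0.31 ± 0.039 (adjusted p = 1.2e-04) in KD cells, of which the parental and control calls were lost when small RNA genes were left out, and the 24 h difference in KD cells, -0.10 ± 0.039 (adjusted p = 0.048), then became 0.0037. Without single libraries the Hdac1 calls were lost in parental cells at 8 h without 1 of the untreated libraries (adjusted p up to 0.053), in control cells at 8 h without 8 h control replicate 2 (adjusted p up to 0.059) and in KD cells at 24 h without either untreated KD library or 24 h KD replicate 1 (adjusted p up to 0.24). Hdac2 ranged from 67.6 to 83.7 FPKM and Hdac3 from 30.8 to 45.9 FPKM over all libraries. The fall of Hdac2 in control cells at 24 h (-0.16 ± 0.045, adjusted p = 0.012) was -0.019 after quantile normalization and 0.011 after rescaling without small RNA genes, neither of which passed, and the call was lost without untreated control replicate 2 or 24 h control replicate 1 (adjusted p up to 0.072).

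Hdac6, a largely cytoplasmic deacetylase of tubulin, rose at 8 h in each kind of cell and stood lower again at 24 h. It had 25.9 and 25.1 FPKM untreated, 37.5 and 35.8 at 8 h and 28 and 28.6 at 24 h in parental cells. Control cells had 18.3 and 19.8 FPKM untreated, 24.9 and 24.5 at 8 h and 15.5 and 16.4 at 24 h. KD cells had 15.3 and 15.2 FPKM untreated, 23.3 and 23.7 at 8 h and 14.9 and 18.5 at 24 h. The 8 h rise was 0.51 ± 0.042 (adjusted p = 1.3e-04), 0.36 ± 0.084 (adjusted p = 0.0050) and 0.59 ± 0.084 (adjusted p = 2.4e-04). Against untreated cells the 24 h difference was 0.15 ± 0.042 (adjusted p = 0.018) in parental and -0.24 ± 0.084 (adjusted p = 0.028) in control cells, the second of which ended under both other scalings. The parental call was lost without 1 of the untreated libraries or either 24 h library (adjusted p up to 0.10), and the control call without untreated control replicate 2 or 24 h control replicate 1 (adjusted p up to 0.14). Hdac11, the class IV enzyme, had 3.27 and 3.34 FPKM untreated, 3.08 and 3.15 at 8 h and 3.84 and 4.21 at 24 h in parental cells. Control cells had 5.61 and 3.59 FPKM untreated, 2.36 and 2.5 at 8 h and 2.77 and 3.21 at 24 h. The parental 24 h difference was 0.22 ± 0.063 (adjusted p = 0.016) and the control one -0.47 ± 0.16 (adjusted p = 0.029), so the 2 tables gave opposite signs, and the control call ended under both other scalings. The parental call was lost without 1 of the untreated libraries or 1 of the 24 h libraries (adjusted p up to 0.13), and the control call without untreated control replicate 1 or 24 h control replicate 1 (adjusted p up to 0.21). The 2 untreated control libraries of Hdac11 were themselves far apart.

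Of the 7 sirtuins 2 rose and 1 fell in parental cells at 8 h, where 22.4% and 32.1% of all genes did. At 24 h 4 rose and none fell there, where 33.4% and 37.1% did. In control cells 1 rose and 3 fell at each time, where 19.4% and 44.9% of all genes did at 8 h and 25.5% and 45.1% at 24 h. In KD cells 2 rose and 3 fell at 8 h, against 23% and 44.8%, and 3 rose and 1 fell at 24 h, against 28.6% and 43.3%. Sirt5, a mitochondrial enzyme that removes succinyl groups, dropped at 8 h and partly returned, with 7.01 and 5.99 FPKM untreated, 3.92 and 4.52 at 8 h and 5.5 and 5.57 at 24 h in parental cells. Control cells had 8.03 and 6.84 FPKM untreated, 3.44 and 3.57 at 8 h and 5.52 and 5.91 at 24 h. KD cells had 6.88 and 6.9 FPKM untreated, 3.99 and 3.8 at 8 h and 5.78 and 6.88 at 24 h. The 8 h fall was -0.52 ± 0.086 (adjusted p = 0.0022), -0.90 ± 0.087 (adjusted p = 2.7e-05) and -0.69 ± 0.087 (adjusted p = 1.1e-04). Sirt2, the cytoplasmic tubulin deacetylase of the family, had 36.9 and 37.3 FPKM untreated, 38.6 and 39.5 at 8 h and 39.2 and 40.4 at 24 h in parental cells. Control cells had 40.9 and 35.1 FPKM untreated, 29.3 and 28.8 at 8 h and 30.5 and 30.2 at 24 h, falling at both times where the parental libraries did not. Its control call at 24 h ended under both other scalings and was lost without some single library. The parental rise of Sirt2 at 24 h passed, but this call too was lost without some single library. Sirt1, the nuclear enzyme, had 4.77 and 4.73 FPKM untreated, 5.4 and 5.47 at 8 h and 5.4 and 5.78 at 24 h in parental cells. Control cells had 4.86 and 5.19 FPKM untreated, 5.84 and 5.72 at 8 h and 5.27 and 5.21 at 24 h, all treated libraries being above the untreated ones. The parental call at 24 h (0.20 ± 0.056, adjusted p = 0.016) was lost without either untreated library or 1 of the 24 h libraries (adjusted p up to 0.12). The parental call at 8 h (0.16 ± 0.056, adjusted p = 0.043) was lost without either untreated library or either 8 h library (adjusted p up to 0.12), without the filter on low values and in a fit of the compared groups alone. The control call at 8 h (0.17 ± 0.052, adjusted p = 0.018) was lost without untreated control replicate 1 or either 8 h control library (adjusted p up to 0.090) and in the fit of the compared groups alone.

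Fewer of the enzymes differed between KD and control cells. In untreated cells 2 members were higher and 8 lower than in control cells (18.9% of 53, where 19.7% of all tested genes passed, 10.6% higher and 9.09% lower). At 8 h of TGF-β 3 were higher and 11 lower (26.4%, against 35.8%, 19.3% higher and 16.5% lower), and at 24 h 4 were higher and 10 lower (26.4%, against 28.3%, 16.8% higher and 11.5% lower). The members that passed were therefore mostly lower at each time, 15.1, 20.8 and 18.9% of those tested, while among all genes higher calls were as common or more so. Of the 53 members 29 passed at no time, and the share of all genes that did so was not computed. With small RNA genes left out and rescaled, the 8 h split became 5 and 5, and 32 passed at no time. Of all genes 2745 were higher and 1463 lower of 11333 at 8 h under that scaling. A fit of the 24 h groups alone left 2 of the 14 calls at that time, Ezh2 and Setd8. Of all 10874 genes in that fit 608 were higher and 301 lower. No member differed by 2-fold.

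The members lower in KD cells at all 3 times were the class IIa deacetylase Hdac7 and the sirtuin Sirt1. Hdac7 in KD cells had 28.3 and 29.6 FPKM untreated, 15.8 and 16.3 at 8 h and 18.5 and 21.1 at 24 h, each group wholly below its control group. The differences were -0.28 ± 0.065 (adjusted p = 0.019) untreated, -0.52 ± 0.065 (adjusted p = 5.9e-04) at 8 h and -0.40 ± 0.065 (adjusted p = 0.0033) at 24 h, of which the untreated call was lost without either untreated control library or either untreated KD library (adjusted p up to 0.13) and the 24 h call in a fit of the compared groups alone. Sirt1 had 3.34 and 3.6 FPKM untreated, 4.9 and 4.98 at 8 h and 4.12 and 3.97 at 24 h in KD cells, again without overlap with control cells. The differences were -0.43 ± 0.052 (adjusted p = 0.0012), -0.19 ± 0.052 (adjusted p = 0.022) and -0.31 ± 0.052 (adjusted p = 0.0040), where the 8 h call was lost without either 8 h control library or either 8 h KD library (adjusted p up to 0.11) and also after rescaling without small RNA genes. Sirt1 itself rose with TGF-β in KD cells, by 0.41 ± 0.052 (adjusted p = 1.2e-04) at 8 h.

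Ezh1 alone was higher in KD cells at all 3 times, with 7.5 and 6.81 FPKM untreated, 7.34 and 6.58 at 8 h and 7.59 and 7.26 at 24 h in KD cells. Control cells had 6.15 and 5.5 FPKM untreated, 5.64 and 5.05 at 8 h and 5.97 and 5.81 at 24 h. The differences were 0.26 ± 0.077 (adjusted p = 0.048), 0.33 ± 0.077 (adjusted p = 0.012) and 0.29 ± 0.077 (adjusted p = 0.024). Each call was lost without some single library: the untreated one without untreated control replicate 2 or either untreated KD library (adjusted p up to 0.26), the 8 h one without 8 h control replicate 2 or 8 h KD replicate 1 (adjusted p up to 0.087) and the 24 h one without either 24 h control library or 24 h KD replicate 1 (adjusted p up to 0.12). Ezh2 was lower in treated KD cells, with differences of -0.32 ± 0.053 (adjusted p = 0.0023) at 8 h and -0.31 ± 0.053 (adjusted p = 0.0041) at 24 h, and did not pass in untreated cells (-0.11 ± 0.053, adjusted p = 0.19).

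Dnmt1 showed the widest gap between KD and control cells. The untreated lines were alike in range (41.1 and 49.7 FPKM in control and 44.4 and 44.9 FPKM in KD cells, -0.019 ± 0.12 (adjusted p = 0.94)), but at 8 h KD libraries had 16.4 and 16.1 FPKM against 29.1 and 27.9 FPKM. That difference was -0.78 ± 0.12 (adjusted p = 0.0016) and held without any single library. At 24 h it was -0.37 ± 0.12 (adjusted p = 0.046), lost without either 24 h control library or 24 h KD replicate 1 (adjusted p up to 0.19). Dnmt3a was higher in KD cells at 24 h only (0.34 ± 0.078, adjusted p = 0.014), a call lost without 24 h control replicate 1 or 24 h KD replicate 2 (adjusted p up to 0.11).

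Other members passed at 1 or 2 times. Hdac1 in untreated cells had 71.3 and 71.5 FPKM in KD against 59.8 and 60.1 FPKM in control libraries, 0.25 ± 0.039 (adjusted p = 0.0040), and both Hdac2 (-0.16 ± 0.045, adjusted p = 0.042) and Hdac3 (-0.29 ± 0.074, adjusted p = 0.027) were lower there, so the ratio of Hdac2 to Hdac1 was 1.01 ± 0.020 (SD, n = 2) in KD and 1.34 ± 0.072 in control cells. The Hdac2 call did not hold under either other scaling or without untreated control replicate 2 or either untreated KD library (adjusted p up to 0.22), and the Hdac3 call was lost without either untreated control library or either untreated KD library (adjusted p up to 0.14). Hdac3, the catalytic subunit of the NCoR complexes, had 35.7 and 35 FPKM untreated, 31.7 and 34.2 at 8 h and 30.8 and 36.9 at 24 h in KD against 43 and 43.9 FPKM untreated, 41.4 and 42.6 at 8 h and 39.4 and 38.8 at 24 h in control cells. At 8 h the difference was -0.34 ± 0.074 (adjusted p = 0.0079), which was lost without 8 h control replicate 2 or 8 h KD replicate 1 (adjusted p up to 0.060). Kdm1b in untreated KD cells had 5.35 and 5.49 FPKM (-0.30 ± 0.058, adjusted p = 0.0089, lost without either untreated KD library (adjusted p up to 0.074)), and Hdac6 was lower there too (-0.30 ± 0.084, adjusted p = 0.037), lost without untreated control replicate 2 or either untreated KD library (adjusted p up to 0.15). At 8 h Kdm4c was higher, with 5.67 and 5.68 FPKM against 4.61 and 4.61 FPKM (0.25 ± 0.051, adjusted p = 0.0062), and Setd7 also (0.27 ± 0.073, adjusted p = 0.020), lost without either 8 h control library or either 8 h KD library (adjusted p up to 0.11). At 24 h Kdm7a was lower (-0.43 ± 0.086, adjusted p = 0.0076, lost without 24 h control replicate 2 (adjusted p up to 0.050)) and Setd8 as well, with 41.7 and 38 FPKM against 51.4 and 51.6 FPKM (-0.36 ± 0.055, adjusted p = 0.0024). Sirt2 was then higher (0.30 ± 0.089, adjusted p = 0.035), a call lost without either 24 h control library or 24 h KD replicate 2 (adjusted p up to 0.14). The other passing members were Setd6 and Setd1b, lower in untreated cells, Setd6, Kdm1b, Kdm2a, Kmt2b, Setd1a and Setd8, lower at 8 h, Kdm2a, Kdm3a, Kmt2b and Setd2, lower at 24 h, and Tet2, higher at 24 h.

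**Figure D4:**
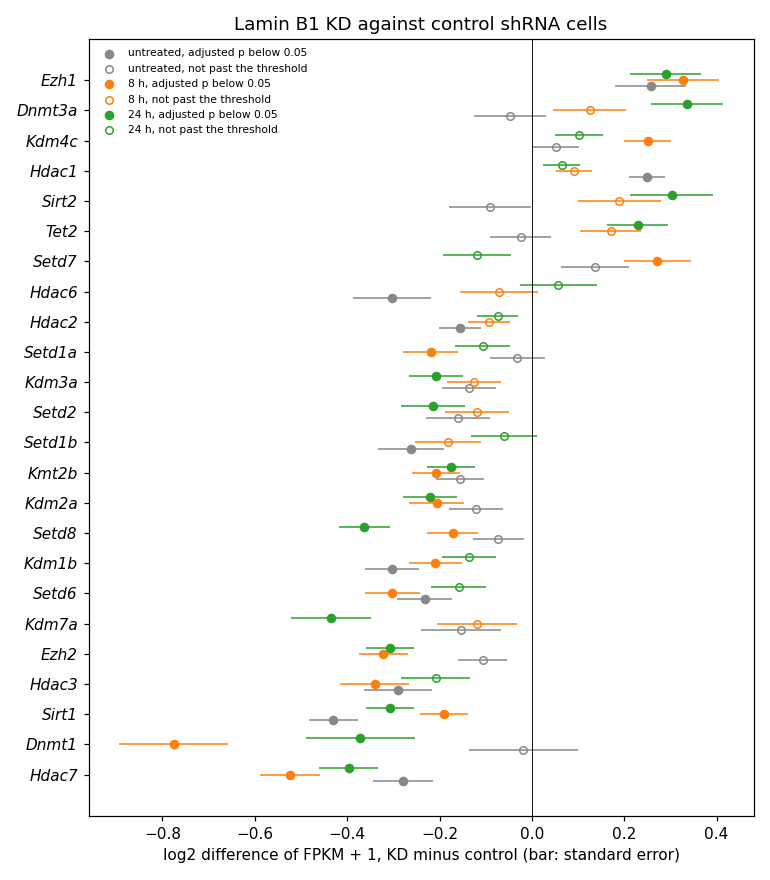
Log2 difference of FPKM + 1 between lamin B1 KD and control shRNA cells (points, with bars for the standard error) for the 24 members that passed at 1 or more times, in untreated cells (grey), at 8 h (orange) and at 24 h (green). Filled points have an adjusted p below 0.05; most filled points lie left of 0, and Dnmt1 at 8 h, at -0.78, lies farthest out.

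Whether KD cells responded differently to TGF-β was tested as the difference between the 2 responses. At 8 h 1 member passed, lower (1.89%, against 4.06% of all tested genes, 2.45% higher and 1.61% lower), and 8 had an unadjusted p below 0.05. At 24 h none passed in limma (against 4.72%, 2.73% higher and 1.98% lower), 11 had an unadjusted p below 0.05, and 2 passed under each of the other scalings. The member was Dnmt1, whose 8 h fall was -1.41 ± 0.12 (adjusted p = 9.3e-06) in KD and -0.65 ± 0.12 (adjusted p = 0.0013) in control cells, a difference of -0.76 ± 0.17 (adjusted p = 0.046). Over 6 refits with all libraries the adjusted p lay between 0.021 and 0.077, missing the threshold without the filter on low values, and leaving out single libraries it lay between 0.017 and 0.17, below 0.05 in 1 of 8 cases, the fit without control replicate 2 of untreated cells. Uhrf1, which brings Dnmt1 to hemimethylated DNA and belongs to the list of partner subunits below, gave a difference of -0.83 ± 0.16 (adjusted p = 0.031) in the same test, the 1 of 35 subunits on that list that passed. It missed the threshold without the filter on low values (adjusted p = 0.055), and leaving out single libraries it passed in 2 of 8 cases, those without either untreated control library, with an adjusted p of up to 0.13. For Hdac7 the value was -0.25 ± 0.092 (adjusted p = 0.17) and for Ezh2 -0.21 ± 0.074 (adjusted p = 0.15), neither of which passed.

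Lists of related genes that are not members give the setting. Of 35 tested partner subunits (of Polycomb, Kmt2, CoREST, Sin3, NCoR and NuRD complexes and Uhrf proteins), 10 rose and 12 fell in parental cells at 24 h. Of all tested genes 33.4% rose and 37.1% fell there. In KD against control cells none was higher and 10, 17 and 9 were lower at 0, 8 and 24 h, where 9.09, 16.5 and 11.5% of all tested genes were lower. After quantile normalization 8, 19 and 14 were lower, and with small RNA genes left out and rescaled 6, 14 and 12, with 1 higher at 8 h under each. Of all tested genes 1007, 2026 and 1611 of 11450 were lower under the first, and 756, 1463 and 1626 of 11333 under the second. Uhrf1 fell by 1.69 ± 0.076 on the log2 scale in parental cells at 24 h, and the Polycomb subunit Suz12 by 0.73 ± 0.042. Of 13 lysine acetyltransferases 2 rose and 9 fell in control cells at 24 h, where 25.5% and 45.1% of all genes did. After quantile normalization 2 rose and 6 fell, as did 3900 and 3901 of all 11450 genes. In parental cells at 24 h 1 rose and 3 fell, against 33.4% and 37.1% of all genes. With small RNA genes left out and rescaled this became 5 and 2, against 4844 and 3209 of all 11269 genes. Hat1, which acetylates new histone H4, fell by 1.36 ± 0.060 in parental and 1.60 ± 0.091 in control cells at 24 h. The remaining lysine methyltransferases and demethylases include, in the parental table, older symbols of members such as Jhdm1d. They counted 9 rising and 9 falling of 29 in parental cells at 24 h, against 33.4% and 37.1% of all genes. Among them Suv39h1, an H3 lysine 9 methyltransferase, was lower by 0.68 ± 0.048 and the demethylase Hr higher by 0.83 ± 0.073. Of 7 arginine methyltransferases 3 rose and 2 fell in the same comparison, against the same shares.

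Lamin B1 peaks were frequent at the enzyme genes. A gene was counted as lamin B1 + where a peak lay between 2.5 kb upstream of its TSS and its 3′ end, by position alone, so a peak shared with a neighbouring gene counts for both. All 59 members could be placed on mm9, and 25 were lamin B1 + before treatment, 37 after 8 h and 27 after 24 h. Among members that passed the expression filter these were 47.2, 69.8 and 49.1%, against 33.1, 55.8 and 43.7% of all tested genes. Members are also longer, with a median of 43.9 kb against 22.4 kb, and the part of length in these shares was not tested. Within 500 bp of the TSS the shares were 35.8, 47.2 and 37.7% of tested members and 26.6, 45.9 and 37.0% of tested genes, so at 8 and 24 h they were close. The lists held 4645, 10484 and 7083 peaks, and with each list cut to the highest 4645 the counts of members were 25, 25 and 23. Among tested members these were 47.2, 47.2 and 41.5%, against 33.1, 32.2 and 32.5% of tested genes. With 1 library per time, the differences between times have no replicate check.

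In 16 members a peak was present at all 3 times (30.2% of the 53 tested members, against 22.5% of all tested genes), namely Hdac2, Hdac5, Hdac7, Kdm1a, Kdm2a, Kdm2b, Kdm6a, Kdm6b, Kmt2c, Kmt2d, Setd2, Setd6, Setd7, Setd8, Sirt1 and Sirt7. Peaks at 8 and 24 h but not before were seen at 9 (Ezh2, Kdm1b, Kdm4c, Kdm5a, Kdm5b, Kdm7a, Kmt2e, Setd1b and Tet3), or 17% of the tested members against 14.4%. A group of 7 had peaks at 0 and 8 h but not at 24 h (Dnmt1, Hdac10, Kdm3a, Kdm3b, Kdm4b, Kmt2b and Tet2), or 13.2% against 6.23%. Another 5 were lamin B1 + at 8 h only (Dnmt3a, Hdac3, Kdm5c, Setd3 and Sirt3; 9.43% against 12.7%). At no time was a peak called at 19, of which 14 were tested (26.4%, against 34.7%). The 19 included Ezh1, Hdac1, Hdac4, Hdac6, Kmt2a and Tet1. Peak scores at members had medians of 73.1, 95.1 and 103, the lowest score in the lists being 50.

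At single genes the peaks differed in place and height. Setd7 had 1 peak at each time, with scores of 87.2 (chr3:51363799-51365657), 98.5 (chr3:51363583-51365588) and 118 (chr3:51363619-51364775). The first 2 cover the printed upstream window and the TSS. The 24 h peak covers none of that window and has its centre 603 bp into the gene, in an intron, while the RNA was at its highest. Part of that peak still lies within 500 bp of the TSS. At Kdm5b a peak covered the TSS and the whole window at 8 h (score 107) and 24 h (97.0) and none was called before. Kdm7a, whose window is the richest in CG of those shown, had no peak in untreated cells and TSS peaks of 224 and 201. Ezh2 had no peak in untreated cells either. Its 8 h peak (score 143) covered the TSS and the whole printed window. Its 24 h peak (103) covered none of that window and had its centre 689 bp into the gene, but still lay in part within 500 bp of the TSS. Dnmt1 went the other way. Its peak in untreated cells (59.8) covered the TSS and 137 bases of the printed window, and its 8 h peaks covered none of that window. The higher 8 h peak (63.2) had its centre in an intron but still lay in part within 500 bp of the TSS. The other (50.2) was in a coding exon far downstream. No peak was called at 24 h, and all those called were close to the lowest listed score.

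Kmt2d carried 5, 12 and 2 peaks, the most of any member before treatment and at 8 h but not at 24 h. Its TSS peak scored 156, 230 and 321 and covered the printed window at each time, and the gene body peaks reached 268 at 8 h, at chr15:98673983-98677353 in coding exons, and were down to 1 at 24 h. Kmt2c, its paralog, had a peak centred 947 to 781 bp upstream with 173, 240 and 226. The TSS peak of Setd2 scored 102, 165 and 264. In contrast, Kdm6b was lamin B1 + at each time without any peak within 500 bp of its TSS: its highest peaks, 119, 242 and 177, had their centres 13480, 13977 and 14200 bp downstream, near the 3′ end. Hdac7 likewise had none at its outermost TSS, with its 8 h maximum of 144 at an inner coding TSS, centred 12994 bp downstream.

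**Figure D5:**
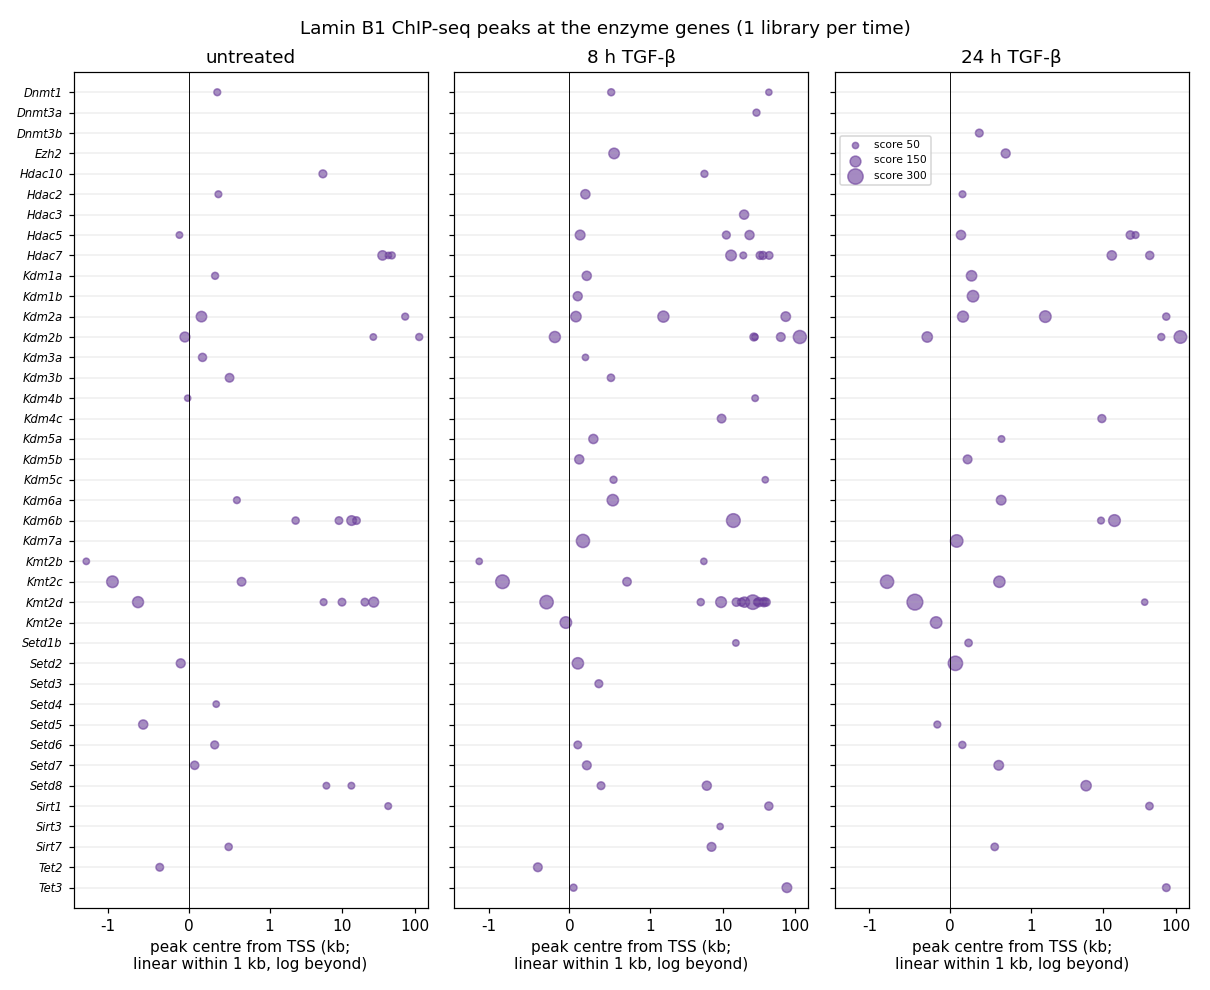
Lamin B1 ChIP-seq peaks at the members that had any, in untreated cells and after 8 and 24 h of TGF-β (1 library each): horizontal axis, distance of the peak centre from the TSS in kb (linear within 1 kb, logarithmic beyond, negative upstream); the area of a point follows the peak score. Most points lie close to 0, Kmt2d has a row of points along its gene body at 8 h, and the points of Kdm6b lie away from the TSS.

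Expression was read by lamin B1 state as a description. The 16 members with a peak at all 3 times had a median of 15.2 FPKM in untreated control cells and the 19 with none 5.82. The 19 include Dnmt3l, Hdac9, Kdm4d, Kdm5d and Tet1, which were below the expression filter, while all 16 passed it in shRNA cells. The peaks are from parental cells, and medians of all genes by state were not computed. In parental cells at 24 h, 4 of the 14 tested in the first set rose and 5 fell, where 35.9% and 35.1% of all genes in that state did. Of the 13 tested without a peak 7 rose and 1 fell, against 31.1% and 38.4% of all genes without one. Of the 7 tested with peaks at 8 and 24 h but not before 2 rose and 2 fell, against 35.3% and 36.4% of all genes in that state. Of the 6 tested with peaks at 0 and 8 h alone none rose and 2 fell, Dnmt1 and Hdac10, against 34.8% and 39.3%. Members that rose and members that fell were found both with and without lamin B1 peaks.

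ATAC peaks, which mark open chromatin, were called within 500 bp of the TSS of 35 members before treatment, of 24 after 8 h and of 48 after 24 h. Among tested members these were 66.0, 45.3 and 86.8%, against 55.4, 45.3 and 82.9% of tested genes. The lists held 9782, 10340 and 33811 peaks, and cut to equal length they gave 35, 22 and 34 members. Among tested members these were 66.0, 41.5 and 62.3%, against 55.4, 43.7 and 51.2% of tested genes. Whether the higher count at 24 h came from the longer list was not tested. A promoter peak was present at all times in 22 members (41.5% of the tested members, against 39.4% of tested genes), among them Dnmt1, Ezh2, Hdac2, Kmt2d and Setd2. At 24 h only, 12 members had a promoter peak (18.9% of the tested members, against 21.9%), among them Kdm5b, Kdm7a, Dnmt3a and Ezh1. Both shares were close to those of other tested genes. Setd7 had a promoter peak at 0 and 24 h, and Kdm1a in untreated cells only. Kdm6b, Hdac7 and Sirt1 were among the 10 without one at any time (11.3% of the tested members, against 16.8%). Hdac7 did have ATAC peaks of 210, 105 and 410 at the inner TSS that its 8 and 24 h lamin B1 peaks also covered. Sirt1 had ATAC peaks within 500 bp of another coding TSS at 8 and 24 h, and its lamin B1 peaks at those times overlapped them. Counted over any coding TSS, 7 members had no ATAC peak at any time (5.66% of the tested members, against 12.9%).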

How the data were processed

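RNA-seq of NMuMG cells was available as 2 tables of gene FPKM, deposited by the authors after alignment with TopHat and Bowtie and quantification with Cufflinks on mm9 (versions not given in the sources used here). The tables have no header line, and columns were assigned to groups from the table titles; 0 columns of per-sample values were left unused. Lamin B1 and ATAC peaks were deposited as lists with a score per peak, which the peak names attribute to MACS; they were called per time, without replicates. FPKM keep no read counts, so no counting interval is given; relative depth came from the step of low values.

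The members and the lists of related genes were chosen with earlier results of these data known. In each table separately, log2(FPKM + 1) was fitted with limma 3.58.1 (R 4.3.3) over all groups for genes that reached 1 FPKM in 2 or more libraries, with Benjamini-Hochberg adjustment over all tested genes and a threshold of 0.05. The procedure was tested on simulated data. Values in every library are given for 24 members fixed for their role and for the 3 members with the largest passing rise and fall in each comparison, 35 in all. Other members are given by counts and ranges, or named for a peak pattern or a count after their values were seen. Genes were placed on mm9 by symbol, a gene being lamin B1 + where a peak overlapped the gene or the 2500 bp before its TSS, and a promoter peak lying within 500 bp of the TSS. The alternatives comprised quantile normalization, no filter on low FPKM, a constant of 0.1 in place of 1, rescaling without small RNA genes (chosen after seeing the data), a replicate block, a fit of the compared groups alone and leaving out each library. Python 3.11.15, numpy 2.4.6, pandas 2.3.3 and matplotlib 3.10.9 were used for peaks and figures. Hi-C was not analysed here.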

Additional observations from a re-analysis of the deposited data

Results flagged for a closer look

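The fall of Dnmt1 at 8 h of TGF-β differed between KD and control cells by -0.76 on the log2 scale (adjusted p = 0.046 in limma), the one member for which this difference passed.

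Other members had log2 differences of opposite sign in every library of 2 kinds of cells, and whether these differ was not tested because parental and shRNA cells are in separate tables. Hdac11 (0.22 in parental and -0.47 in control cells at 24 h), Hdac6 (0.15 and -0.24) and Sirt2 (0.10 and -0.31) passed in both. Each of these calls was lost without some single library, and the control calls also ended under both other scalings. Sirt2 at 8 h passed in control cells alone (0.072 in parental and -0.37 in control cells). Kdm4c (0.14 and -0.084) and Setd2 (0.10 and -0.10) at 24 h passed in neither, and the median of all genes in control cells at that time was itself at -0.13. Within the shRNA table Hdac1 at 24 h had 0.086 in control cells, which did not pass, and -0.098 in KD cells, which did, and the difference between these responses did not pass.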

How the results depend on the processing

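Of 3658 alternative values for 346 named results, 3362 kept direction and side of the threshold, 207 lost the threshold, 87 passed it newly and 2 reversed, both after small RNA genes were left out: Hdac2 in control cells at 24 h (0.011) and Hdac1 in KD cells at 24 h (0.0037). Of 153 named calls, 99 held in every alternative.

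Counts of members called moved by over 1.5 times in KD against control cells. A fit of the compared groups alone gave 6 untreated, 24 at 8 h and 2 at 24 h, and no filter gave 6 untreated. Of all genes in the fit of the compared groups, 615 were higher and 494 lower of 10928 untreated. At 8 h these were 2969 and 2686 of 10826, and at 24 h 608 and 301 of 10874. With no filter 1205 were higher and 891 lower of 19170 in untreated cells. For the difference between responses, no filter gave 0 at 8 h, and at 24 h quantile normalization gave 2 and rescaling without small RNA genes gave 2. Of all genes 207 were higher and 148 lower of 19170 at 8 h with no filter. At 24 h 246 and 267 of 11450 were so after quantile normalization, and 214 and 378 of 11333 after that rescaling. Leaving out single libraries, the counts ranged from 17 to 23 (parental, 8 h), 20 to 24 (parental, 24 h), 23 to 30 (control, 8 h), 22 to 28 (control, 24 h), 24 to 28 (KD, 8 h), 23 to 32 (KD, 24 h), 2 to 9, 7 to 11 and 5 to 17 (KD against control at 0, 8 and 24 h), and 0 to 4 and 0 to 8 (difference between responses at 8 and 24 h). Keeping only peaks at or above the median score of their list left 14 lamin B1 + members at 0 h and 17 at 24 h. Among tested members these were 26.4 and 32.1%, against 18.8 and 25.9% of tested genes.

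Same-numbered shRNA libraries did not deviate together in most of 15 pairs of groups (correlations from -0.14 to 0.37, 2 over 0.1 and 3 under -0.1). The numbers were therefore not taken to pair them. The 2 pairs over 0.1 were control with KD cells at 24 h (0.37) and untreated with 24 h KD cells (0.18). With a replicate block the difference between responses at 8 h still gave 1 member. No paired analysis was possible for parental cells because the columns carry no replicate numbers.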
